A study of Mus musculus with 18 samples.

Results

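The loci of 8 transcription regulators of the myeloid and B cell lineages were examined for binding of PU.1 and the 2 factors C/EBPα and C/EBPβ while pre-B cells were turned into macrophage-like cells. The 8 genes were *Maf*, *Klf2*, *Klf4*, *Klf6*, *Egr1*, *Egr2*, *Id2* and *Nfe2*, out of 22367 protein-coding genes. Each locus was the annotated gene span with 50 kb added on either side, on the mouse genome build mm9. The rule that set the loci used no measured value, but the genes were picked with earlier results of these data known. The 8 loci held 101 bound sites of 103142 in the genome. A bound site was a 200-bp window in which at least 1 of the 18 libraries had a Poisson p of at most 1e-07 over the genome, which took 7 to 15 reads depending on depth, and was denser in reads than the surrounding 10 kb by 4-fold or more. Calls of different libraries were chained into 1 site where each centre lay within 200 bp of the next, so a call can lie further than that from the site's centre.

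The cells were C10, a single pre-B cell line (derived from HAFTL cells) that carries C/EBPα fused to the estrogen receptor hormone-binding domain and to GFP. β-Estradiol moves the fusion protein into the nucleus. According to the labels, induced cells received β-estradiol at 100 nM and were kept in IL-3 and CSF-1 at 10 nM, and control cells received the solvent, ethanol. The series held 8 ChIP-seq libraries for C/EBPα (0, 10, 30 and 60 min and 3, 12, 24 and 48 h post-induction, hpi). C/EBPβ and PU.1 had 5 libraries each (0, 3, 12, 24 and 48 hpi). Since the fusion protein is present before induction, the 0 hpi cells are uninduced and not free of C/EBPα. All samples shared 1 line and 1 transgene, and no input library was used here.

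There was 1 library per factor and time, so no test between times was possible and no replicate error is known. Intervals in brackets are exact 95% Poisson intervals of a read count, or exact conditional intervals of a ratio of 2 counts, and cover counting error only. A site was counted as higher at one time than another when its normalised reads (reads of the window per 10000000 reads of the library) differed at least 2-fold and the 2 Poisson intervals did not overlap. The number of reads used was 5970869 to 24917810 in the C/EBPα libraries. C/EBPβ libraries were shallower (2903580 to 5844202 reads), and PU.1 libraries had 6575348 to 11349746. The 10, 30 and 60 min C/EBPα libraries had 50-base reads and came from another sequencer than the others, which had 36 bases for C/EBPα and PU.1 and 40 for C/EBPβ. For C/EBPα, those 3 times and the sequencing cannot be told apart. The comparison of 3 with 48 hpi is free of that difference.

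C/EBPα and C/EBPβ are basic leucine zipper factors that bind the same DNA element, and both drive granulocyte and macrophage genes. PU.1 is an ETS factor used by both B cells and macrophages. c-Maf, encoded by *Maf*, is a large MAF protein of the same leucine zipper superfamily and is expressed in many tissue macrophages. The KLF proteins bind GC-rich and CACCC elements through zinc fingers, and KLF2 and KLF4 are known in monocytes and lymphocytes. EGR1 and EGR2 are immediate early zinc-finger factors linked to monocyte differentiation. ID2 has a helix-loop-helix without a DNA-binding region and holds E proteins, the partners of B cell development, away from DNA. NF-E2 p45, encoded by *Nfe2*, pairs with small MAF proteins and is best known in megakaryocytes and erythroid cells.

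Sequences are shown for some of the leading sites of *Klf2*, *Klf6*, *Egr2* and *Nfe2*, on which the time courses turn. Each sequence is the + strand of mm9, read 5′ to 3′, 200 bases around the site's centre, and capitals mark exact matches on either strand to the consensus of C/EBP (TTGCNNAA), PU.1 (GAGGAAGT) or AP-1 (TGANTCA). The leading C/EBPα and C/EBPβ site of *Klf2* lay 15.2 kb upstream of the gene (chr8:74827676-74827875) and held a single C/EBP match. The leading PU.1 site of *Klf2* lay 3.7 kb downstream of the gene's start (chr8:74846526-74846725), and its C/EBPα calls lay 125 to 175 bp further toward the gene, so a second window centred on the 3 hpi C/EBPα call is printed as well (chr8:74846401-74846600). Each of these overlapping windows held a C/EBP match of its own, and both held the same AP-1 match.

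*Klf2*, 15.2 kb upstream: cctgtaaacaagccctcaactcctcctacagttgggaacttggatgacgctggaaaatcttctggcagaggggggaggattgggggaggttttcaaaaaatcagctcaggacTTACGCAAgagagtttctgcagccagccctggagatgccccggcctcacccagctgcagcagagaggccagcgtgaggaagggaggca
*Klf2*, 3.7 kb downstream, centred on PU.1: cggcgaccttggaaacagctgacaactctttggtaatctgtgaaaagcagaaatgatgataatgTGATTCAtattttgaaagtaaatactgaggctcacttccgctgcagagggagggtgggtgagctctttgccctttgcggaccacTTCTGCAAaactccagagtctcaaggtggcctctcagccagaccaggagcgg
*Klf2*, 3.7 kb downstream, centred on C/EBPα at 3 hpi: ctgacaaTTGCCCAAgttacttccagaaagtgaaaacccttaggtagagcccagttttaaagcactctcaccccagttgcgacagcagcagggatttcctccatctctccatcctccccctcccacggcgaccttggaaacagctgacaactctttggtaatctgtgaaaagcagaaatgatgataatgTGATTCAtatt

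The leading C/EBPα and C/EBPβ site of *Klf6* lay 14.2 kb downstream of its start (chr13:5874851-5875050) and held 2 C/EBP matches. The leading PU.1 site of *Klf6*, 11.1 kb upstream (chr13:5849551-5849750), held none of the 3 consensus letters exactly. At *Egr2* the leading C/EBPα site, 45.4 kb upstream (chr10:66952726-66952925), held a PU.1 and a C/EBP match that overlapped. The stretch shown for *Nfe2* is limited to the 28 bases (chr15:103088797-103088824) that span both C/EBP matches at its start, since it lies in the annotated UTR.

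*Klf6*, 14.2 kb downstream: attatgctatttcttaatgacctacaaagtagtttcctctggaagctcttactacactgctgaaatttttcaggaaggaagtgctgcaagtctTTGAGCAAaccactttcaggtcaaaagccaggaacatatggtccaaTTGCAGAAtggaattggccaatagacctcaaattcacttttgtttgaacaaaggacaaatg
*Klf6*, 11.1 kb upstream: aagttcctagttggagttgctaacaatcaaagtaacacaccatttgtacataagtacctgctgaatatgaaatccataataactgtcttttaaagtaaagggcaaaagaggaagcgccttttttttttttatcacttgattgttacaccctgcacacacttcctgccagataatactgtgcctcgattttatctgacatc
*Egr2*, 45.4 kb upstream: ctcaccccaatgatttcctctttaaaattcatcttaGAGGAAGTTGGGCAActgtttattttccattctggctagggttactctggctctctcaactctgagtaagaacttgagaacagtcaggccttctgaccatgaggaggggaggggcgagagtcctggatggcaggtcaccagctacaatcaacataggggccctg
*Nfe2*, at the start: TTGCCAAAcaccccactgggTTATGCAA

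The loci differed widely in the number of bound sites. *Klf2* held 29, *Klf6* 22, *Nfe2* 16, *Egr1* 15, *Egr2* 13, *Id2* 4, *Klf4* 2 and *Maf* none. Over all 22367 coding loci the median was 8 sites (quartiles 3 and 15), and 96.7% of loci held fewer sites than *Klf2* and 19.5% held fewer than *Klf4*. A locus with no site at all was found for 12.9% of coding genes, and a locus with no C/EBPα site for 26.3%, which here were *Maf* and *Klf4*. Of the 101 sites, 64 had the member's own start as the nearest coding start, and 25 lay within 5 kb of it. By annotation 73 sites were intergenic, 22 in an intron, 4 in a UTR and 2 in a coding exon. Distance does not assign a site to a gene: the sites from 29.2 kb downstream of *Klf2* onward lay in introns of *Eps15l1*, and the loci of *Egr1* and *Nfe2* each held 4 other coding genes.

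**Figure D1:**
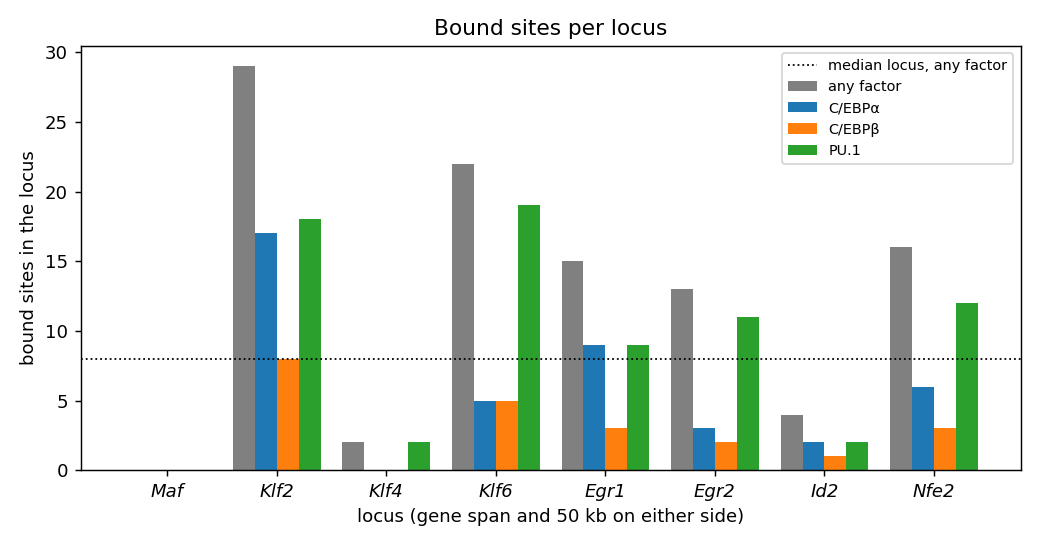
Bars give the number of bound sites (y axis) in each of the 8 loci (x axis) for any factor and for each factor, and the dotted line is the median of 8 sites for any factor over all coding loci. *Klf2* and *Klf6* stand highest with 29 and 22 sites, and *Maf* has no bar.

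C/EBPα was called in at least 1 library at 42 of the 101 sites, C/EBPβ at 22 and PU.1 at 73. The shares over all sites of the genome were 38.7%, 18.1% and 74.0%. PU.1 without either C/EBP accounted for 54 sites (57.1% of all sites of the genome), a C/EBP factor without PU.1 for 28 (26.0%), and all 3 factors for 9 (7.54%). The shares at the 8 loci (53.5% of their sites for PU.1 alone and 8.91% for all 3 factors) were near those of the genome. Of the 9 sites with all 3 factors, 3 were at *Klf2*, 2 at *Klf6*, 2 at *Egr1*, 1 at *Egr2* and 1 at *Nfe2*. At *Klf6* 16 of 22 sites were PU.1 alone, whereas at *Klf2* 11 of 29 were.

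C/EBPα calls were most numerous within the first hours. At the 42 sites, 5 were called at 0 h, 10 at 10 min, 20 at 30 min, 28 at 60 min, 22 at 3 h, 18 at 12 h, 15 at 24 h and 10 at 48 h. The 10 called at 48 h set against 8.50% of all sites. The genome as a whole followed a like course, from 2923 C/EBPα sites at 0 h to 23726 at 60 min and 8788 at 48 h, and the depth of these libraries differed, so the course is not particular to the 8 loci. The time with the most reads was 30 min at 9 sites (15.5% of all C/EBPα sites), 60 min at 10 (21.2%), 3 h at 8 (29.2%), 12 h at 10 (17.7%) and 48 h at 2 (6.56%). C/EBPβ calls were most numerous at 48 hpi, here and in the genome. Its calls numbered 3, 6, 5, 10 and 21 from 0 to 48 hpi (1206, 6507, 3576, 7161 and 15501 in the genome), and 18 of its 22 sites had most reads at 48 hpi, as did 66.9% of all C/EBPβ sites in the genome. PU.1 was called at 20 sites at 0 hpi (31.3% of all sites were) and at 23, 51, 49 and 38 after that, where the genome had 32347 calls at 0 hpi and 35867, 59469, 45396 and 42072 after that. The PU.1 libraries of 0 and 3 hpi were shallower (7052065 and 6575348 reads) than those of 12, 24 and 48 hpi (10713424, 11349746 and 10465876). How far depth shaped this course was not tested. The highest PU.1 value fell at 12 hpi for 33 of 73 sites (39.8% in the genome).

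**Figure D2:**
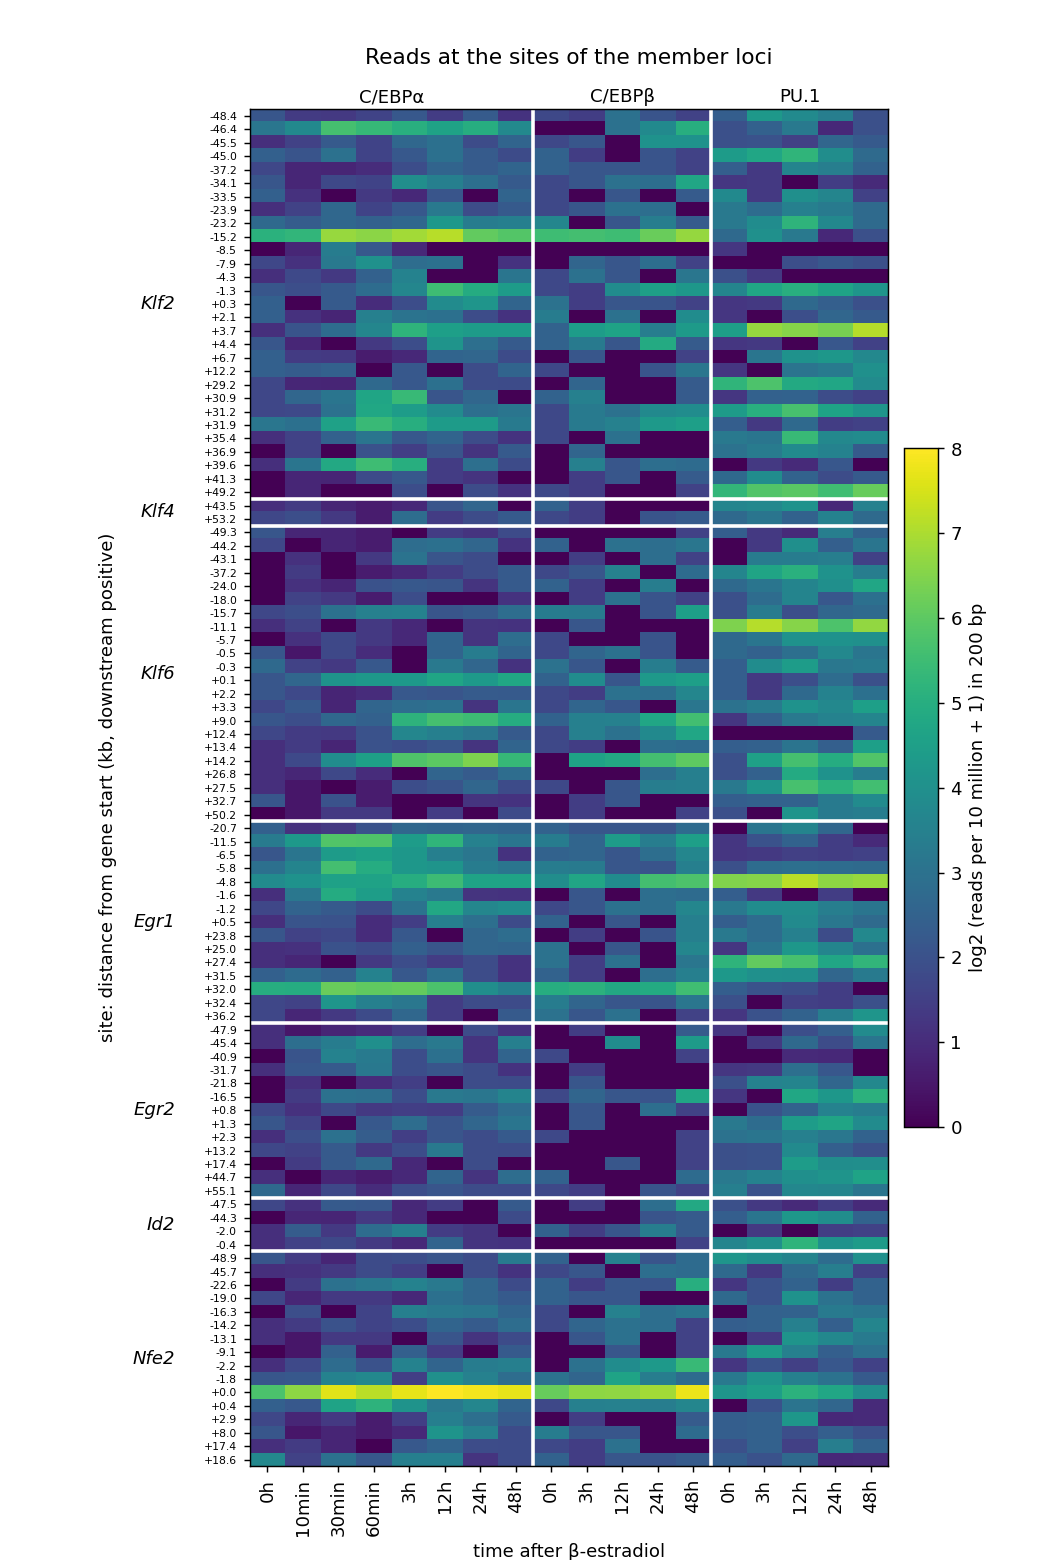
Each row is 1 of the 101 sites, ordered by distance from the gene start in kb within each locus (*Maf* has none), and each column is 1 library in time order; colour is log2 of normalised reads plus 1 in 200 bp. The brightest C/EBPα rows are the start of *Nfe2* and the *Klf2* site 15.2 kb upstream, and PU.1 is brightest 3.7 kb downstream of *Klf2*, 11.1 kb upstream of *Klf6* and 4.8 kb upstream of *Egr1*.

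Between 0 and 48 hpi C/EBPα was higher at 7 of the 101 sites (4.18% of all sites). These were 3 sites of *Klf6*, 2 of *Klf2*, 1 of *Egr2* and 1 of *Nfe2*. It was lower at 1 site, in the *Egr1* locus (0.188%). At 60 min 12 sites had more C/EBPα than at 48 hpi (9.75%), of which 6 were at *Klf2*, 5 at *Egr1* and 1 at *Nfe2*. The reverse held at 3 sites (3.79%), 1 each at *Klf2*, *Klf6* and *Egr1*, a count that moved to 1 in thinned libraries and to 5 in a 500-bp window. At 3 hpi 7 sites had more C/EBPα than at 48 hpi (8.79%), 4 of them at *Klf2*, 2 at *Egr1* and 1 at *Id2*. No site of *Klf6* or *Egr2* was among them in either comparison. C/EBPβ was higher at 48 than at 0 hpi at 13 sites (7.07%) and lower at 0 (0.0436%), and the 13 became 5 when the C/EBPβ libraries were thinned to equal depth. PU.1 was higher at 48 hpi at 9 sites (7.79%) and lower at 1 (5.17%).

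**Figure D3:**
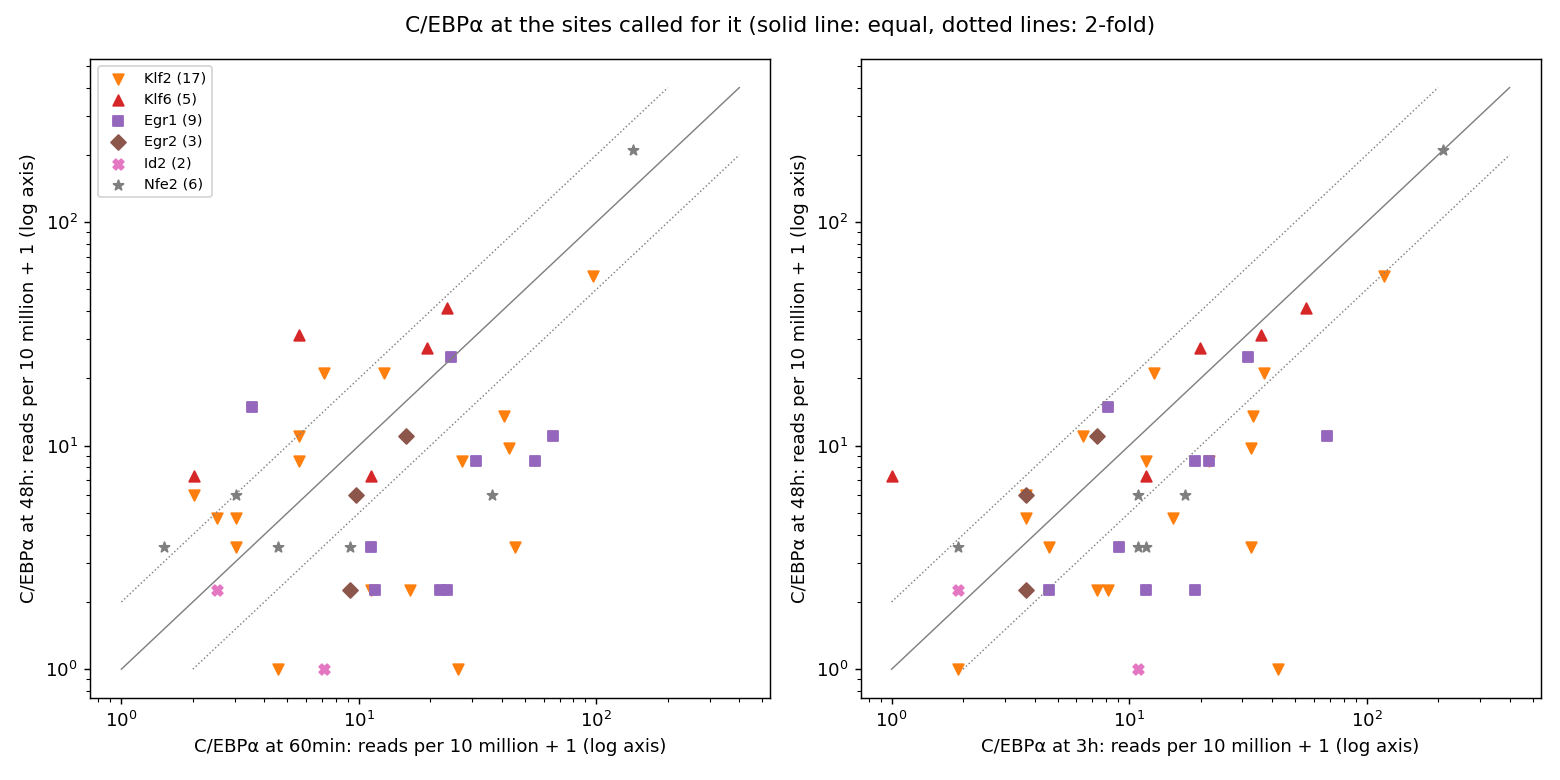
Each point is 1 of the 42 C/EBPα sites, with C/EBPα normalised reads plus 1 at 60 min (left) or 3 h (right) on the x axis against 48 h on the y axis, both log axes; solid lines mark equal values and dotted lines 2-fold. *Klf2* and *Egr1* hold 11 of the 12 points counted as higher at 60 min than at 48 h, and 4 of the 5 *Klf6* points lie above the line of equal values at 60 min.

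*Klf2* (chr8:74842932-74845555, + strand) had 17 C/EBPα, 8 C/EBPβ and 18 PU.1 sites. Its leading C/EBP site, 15.2 kb upstream in intergenic DNA, was already called for C/EBPα before induction. The nearest coding start to this site was that of *Gm10282*, 1383 bp away. Normalised C/EBPα reads there were 33.8 at 0 h, 37.3 at 10 min, 108 at 30 min, 96.2 at 60 min, 117 at 3 h, 139 at 12 h, 67.2 at 24 h and 56.6 at 48 h. The values were thus highest from 30 min to 12 h. The 3 hpi value was 2.07-fold (1.46 to 2.97) above 48 hpi, whereas 48 against 0 hpi was 1.67-fold (1.03 to 2.75) and did not reach the 2-fold set for a change. C/EBPβ at the same site stood at 44.4, 47.9, 44.8, 70.4 and 106 normalised reads from 0 to 48 hpi, a 2.40-fold (1.40 to 4.28) rise. PU.1 there stayed between 0.881 and 15.2 and was called at 3 hpi alone. C/EBPα therefore stood lower at 48 hpi than at 3 hpi at a site where C/EBPβ had its highest value.

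The PU.1 site 3.7 kb downstream of the *Klf2* start, past the end of the gene, behaved differently. Normalised PU.1 reads rose from 21.3 at 0 hpi to 105 at 3 hpi and then read 92.4, 81.9 and 136 at 12, 24 and 48 hpi. The 3 hpi value was 4.93-fold (2.79 to 9.29) and the 48 hpi value 6.38-fold (3.74 to 11.7) above 0 hpi. Most of the difference was thus present at 3 hpi, with 69 reads counted against 15 at 0 hpi. C/EBPα in the window centred on PU.1 read 1.13, 3.21, 6.15, 11.8, 35.9, 21.8, 19.8 and 20.1. At its own call, 125 to 175 bp upstream of that centre, C/EBPα had 30.0 at 30 min, 31.7 at 60 min, 81.8 at 3 h, 46.9 at 12 h, 47.5 at 24 h and 39.0 at 48 h. C/EBPα was not called here at 0 or 10 min, where PU.1 was called at 0 hpi. The fold of C/EBPα from 0 to 48 hpi in the shared window was 17.8 with an interval of 2.77 to 748, since the 0 h library held 1 read. C/EBPβ had its own calls 100 to 200 bp upstream, with 27.4, 44.8, 35.2 and 55.2 normalised reads from 3 to 48 hpi.

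At 6 other C/EBPα sites of *Klf2* reads were higher at 60 min than at 48 h, and at 1 they were lower. At 39.6 kb downstream, in an *Eps15l1* intron, C/EBPα read 1.13, 7.63, 27.7, 44.5, 31.5, 1.67, 6.59 and 2.51 from 0 to 48 h. The 60 min value was 17.7-fold (4.76 to 149) and the 3 h value 12.5-fold (3.21 to 107) above 48 h. Reads at this site were at most 6.59 from 12 h on. At 30.9 kb downstream C/EBPα had 41.3 at 3 h and no read at 48 h, at least 11.0-fold lower when the 48 h value is set to 3 reads. At 31.9 kb downstream it had 42.0 at 60 min, 31.5 at 3 h and 8.80 at 48 h. The 3 h value was 3.57-fold (1.56 to 9.54) above 48 h. The sites 7.9 kb upstream and 31.2 kb downstream were 12.2-fold (2.03 to 498, 1 read at 48 h) and 3.46-fold (1.49 to 9.87) higher at 60 min than at 48 h. The site 7.9 kb upstream was called by the 60 min library alone, and the one 30.9 kb downstream by the 3 h library alone. The high value is what made each of them a site, so their folds were selected to be high. At 31.2 kb downstream the only C/EBPα call was also that of the 60 min library, so its fold was in part selected. PU.1 was called at that site in all 5 libraries. The site 46.4 kb upstream had 39.9 at 60 min against 12.6 at 48 h, 3.18-fold (1.64 to 6.88), while C/EBPβ there had no read at 0 and 3 hpi and 31.5 at 48 hpi. The site with less at 60 min, 1.3 kb upstream of the start, had C/EBPα at 3.38 at 0 h, 6.14 at 60 min, 11.7 at 3 h, 45.2 at 12 h and 20.1 at 48 h. Its 48 h value was 5.94-fold (1.70 to 31.8) above 0 h, and PU.1 was called there in all 5 libraries.

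Of the PU.1 sites of *Klf2* without a C/EBP call, 2 were counted as higher at 48 than at 0 hpi and 1 as lower. The higher ones lay 6.7 kb downstream (no read at 0 hpi, at least 2.92-fold) and 12.2 kb downstream (10.8-fold, 1.67 to 452, 1 read at 0 hpi). Each was called by 2 PU.1 libraries only, first at 12 and 24 hpi, so these folds over 0 hpi were in part selected to be high. At 29.2 kb downstream PU.1 read 36.9, 53.2, 28.0, 25.6 and 13.4 from 0 to 48 hpi, and was 2.76-fold (1.39 to 5.71) lower at 48 than at 0 hpi. At 49.2 kb downstream it read 38.3, 56.3, 61.6, 45.8 and 68.8, which was not counted as a change. The 200 bp around the annotated *Klf2* start were low for all factors, with at most 10.5 normalised reads for C/EBPα, 6.89 for C/EBPβ and 4.25 for PU.1.

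**Figure D4:**
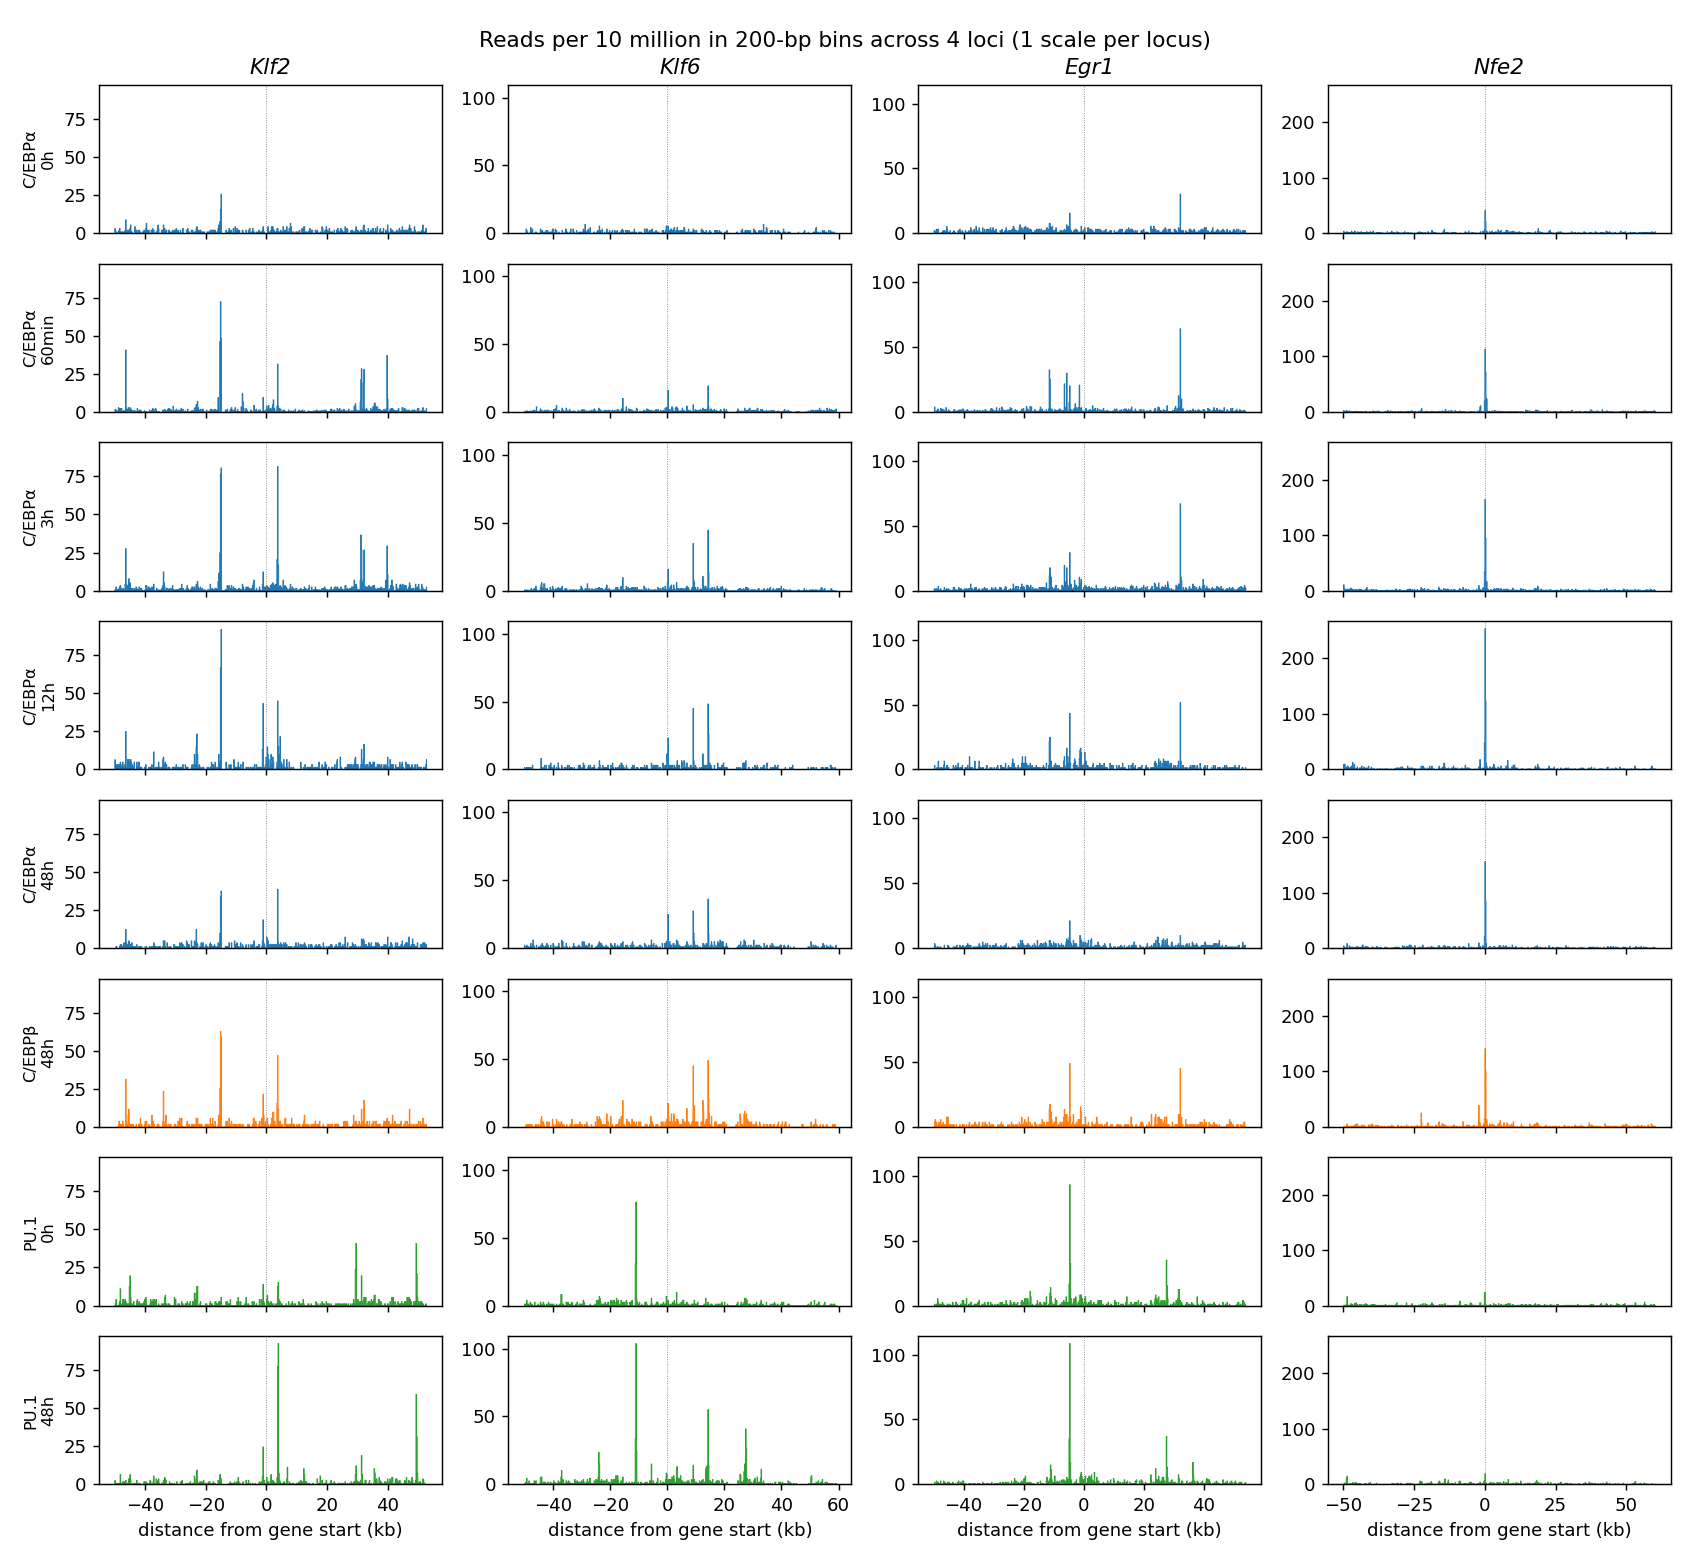
Normalised reads in 200-bp bins (y axis, 1 scale per locus) against distance from the gene start in kb (x axis) at *Klf2*, *Klf6*, *Egr1* and *Nfe2*, for C/EBPα at 5 times, C/EBPβ at 48 h and PU.1 at 0 and 48 h. At *Klf2* the C/EBPα peaks of 60 min and 3 h from 30.9 kb downstream on are lower at 48 h. At *Klf6* the C/EBPα peaks 9.0 and 14.2 kb downstream are higher from 3 h on than at 60 min, and at *Nfe2* 1 peak at the start dominates.

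*Klf6* (chr13:5860735-5869639, + strand) had 5 C/EBPα, 5 C/EBPβ and 19 PU.1 sites, and all 22 sites had the *Klf6* start as the nearest coding start. All 3 factors were called 14.2 kb downstream of the start, where C/EBPα and C/EBPβ had most reads. C/EBPα there read 1.13 at 0 h, 2.41 at 10 min, 13.8 at 30 min, 22.5 at 60 min, 54.8 at 3 h, 62.0 at 12 h, 85.7 at 24 h and 40.2 at 48 h. C/EBPβ read 0, 24.0, 27.5, 48.0 and 63.0, and PU.1 2.84, 22.8, 48.5, 30.0 and 55.4. None of the 3 was called at 0 hpi, and every library from 3 hpi on was above the 0 hpi library of its factor. From 0 to 48 hpi C/EBPα was 35.7-fold higher (5.96 to 1452, 1 read at 0 h), PU.1 19.5-fold (5.17 to 165, 2 reads) and C/EBPβ at least 9.0-fold against a floor of 3 reads. At 30 and 60 min C/EBPα was called there, but PU.1 was not analysed here at those times, so the order of the 2 factors before 3 hpi is not known from these libraries.

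A second *Klf6* site, 9.0 kb downstream and just past the gene's end, gained C/EBPα later. It read 3.38, 2.81, 5.38 and 4.61 up to 60 min and 35.0, 48.6, 43.5 and 30.2 from 3 to 48 h. The 4 early values lay below the 4 later ones. C/EBPα was 8.92-fold (2.71 to 46.3) higher at 48 than at 0 h and 6.55-fold (2.94 to 16.0) higher at 48 h than at 60 min. C/EBPβ rose 10.1-fold (2.51 to 88.4) from 4.67 to 47.3, while PU.1 went from 1.42 to 11.5. The first C/EBPα call at this site came at 3 h, and the call at 14.2 kb came at 30 min.

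Near the *Klf6* start, 141 bp downstream in the UTR, C/EBPα read 3.38 at 0 h, 5.22 at 10 min and between 16.2 and 26.4 from 30 min on. The 48 h value was 7.80-fold (2.33 to 40.9) above 0 h. PU.1 was not called at that site. In the 200 bp around the start itself C/EBPα was at most 13.5, C/EBPβ 9.85 and PU.1 2.80. Just upstream of the start PU.1 did have sites, 284 bp away (2 libraries, first at 3 hpi) and 534 bp away (24 hpi alone). By contrast, the leading PU.1 site of the locus, 11.1 kb upstream, carried 86.5, 138, 93.3, 52.9 and 104 normalised reads from 0 to 48 hpi and no more than 2.01 of C/EBPα. Its change from 0 to 48 hpi was 1.20-fold (0.872 to 1.68). A PU.1 site 27.5 kb downstream was 5.50-fold (2.35 to 15.7) higher at 48 hpi, at 8.51, 16.7, 49.5, 34.4 and 46.8.

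**Figure D5:**
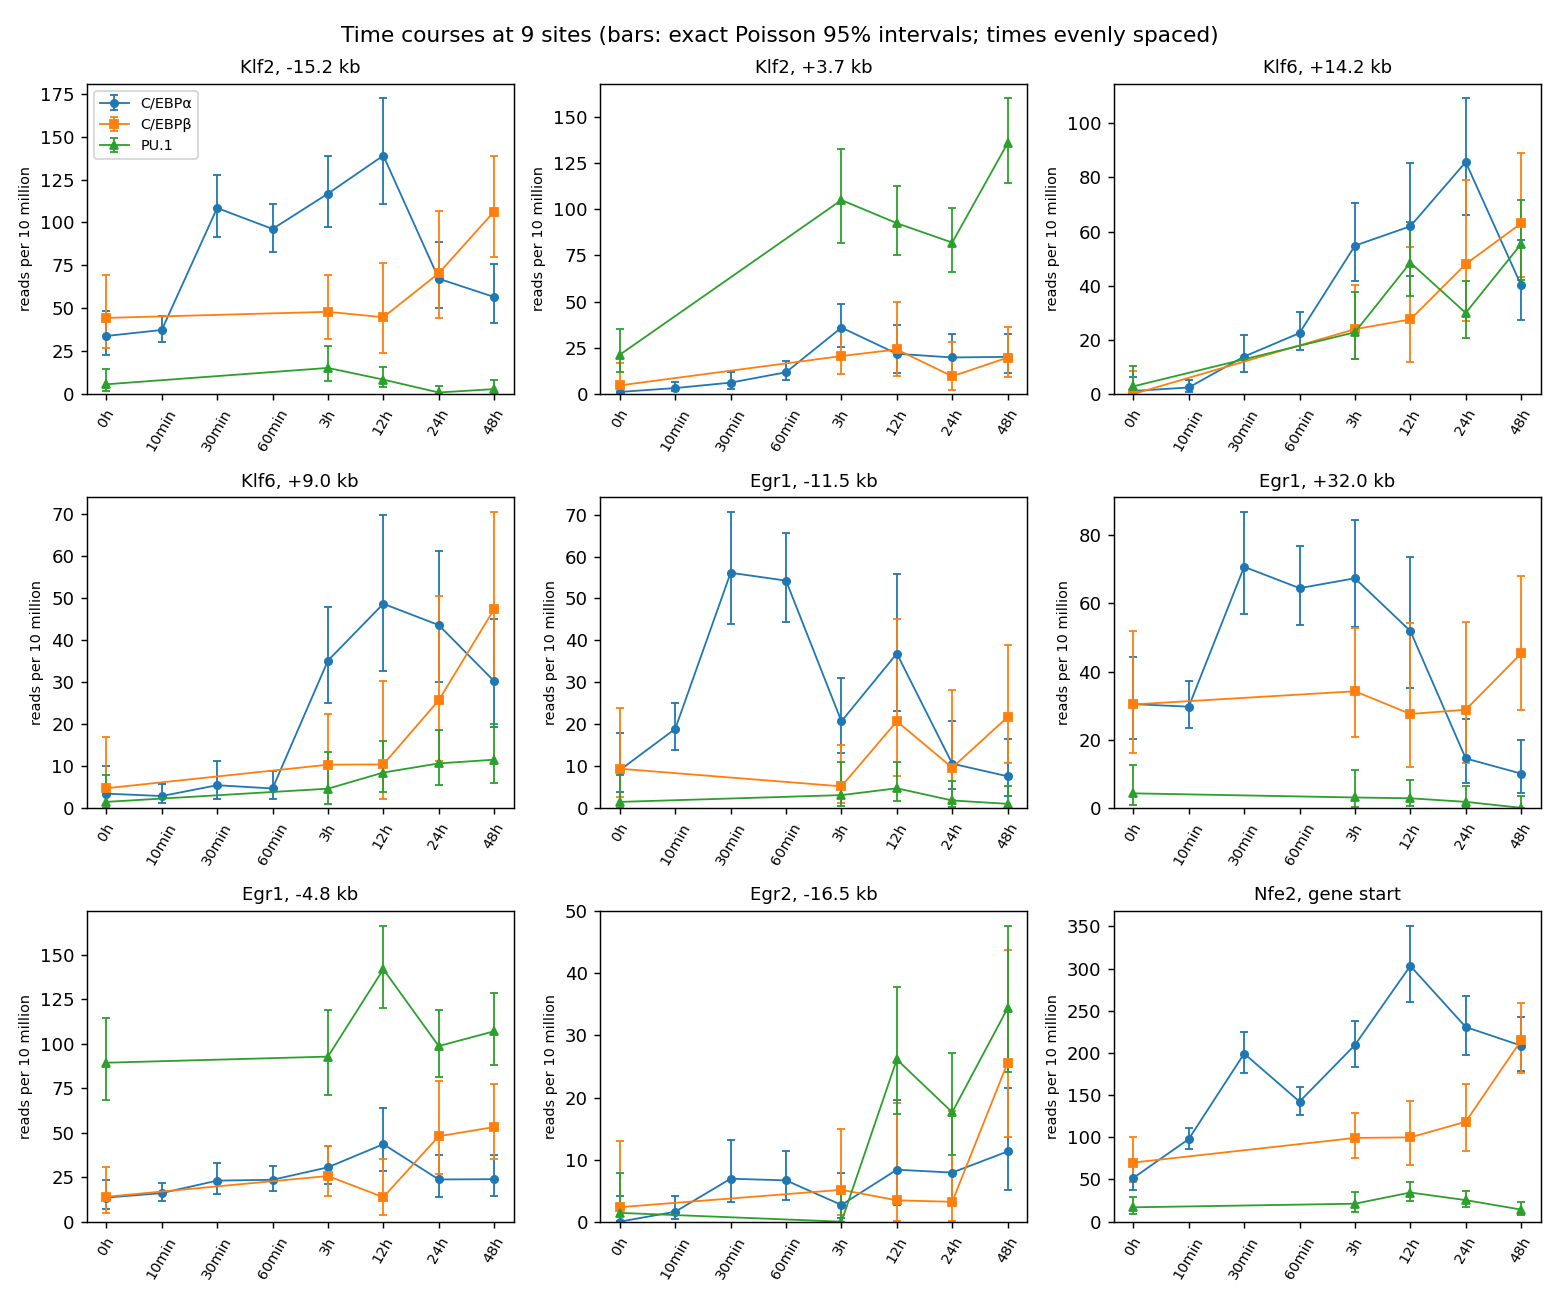
Normalised reads (y axis) at 9 sites of *Klf2*, *Klf6*, *Egr1*, *Egr2* and *Nfe2* by time after β-estradiol (x axis, evenly spaced), for C/EBPα (circles), C/EBPβ (squares) and PU.1 (triangles), with exact 95% Poisson intervals as bars. C/EBPα falls at late times at the *Klf2* site 15.2 kb upstream and at 2 *Egr1* sites, whereas all 3 factors stand above 0 h at every time from 3 h on at the *Klf6* site 14.2 kb downstream.

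*Egr1* (chr18:35020861-35024638, + strand) had 9 C/EBPα, 3 C/EBPβ and 9 PU.1 sites. Of the 9 C/EBPα sites, 7 had their highest value at 30 or 60 min, the times of 50-base libraries, at which 15.5% and 21.2% of all C/EBPα sites were highest. The leading one, 32.0 kb downstream, carried 30.4 at 0 h, 29.7 at 10 min, 70.8 at 30 min, 64.5 at 60 min, 67.4 at 3 h, 51.9 at 12 h, 14.5 at 24 h and 10.1 at 48 h. C/EBPα was on this site before induction and the last 2 libraries lay below the first. The value was 6.41-fold (3.16 to 15.2) higher at 60 min and 6.70-fold (3.23 to 16.1) higher at 3 h than at 48 h. At 48 h it was 3.03-fold (1.34 to 7.71) lower than at 0 h, a call that was lost under 3 of the other settings. C/EBPβ at the site read 30.3, 34.2, 27.6, 28.8 and 45.3, 1.49-fold (0.725 to 3.21) from 0 to 48 hpi, and PU.1 was at most 4.25.

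Upstream of *Egr1* lay 4 further C/EBPα sites that are named because they were counted as higher at 60 min than at 48 h, a comparison in which time and sequencing cannot be told apart. The site 11.5 kb upstream read 9.02, 18.9, 56.1, 54.2, 20.7, 36.8, 10.5 and 7.54, and was 7.19-fold (3.20 to 20.05) higher at 60 min than at 48 h. Those 6.5, 5.8 and 1.6 kb upstream were 17.9-fold (3.05 to 724), 4.0-fold (1.73 to 11.4) and 16.7-fold (2.83 to 675) higher at 60 min than at 48 h. The wide intervals go with 1 read at 48 h in the first and last of these. At 6.5 kb the 3 h value also exceeded 48 h, by 14.3-fold (2.29 to 593). The PU.1 calls joined to the 11.5 kb site lay 200 to 325 bp downstream of its centre, at 14.0 to 24.3 normalised reads, and PU.1 at the centre itself was at most 4.67, so that its place among the sites with all 3 factors rests on this chaining. At a site 1.2 kb upstream C/EBPα was instead 5.40-fold (1.73 to 19.8) higher at 48 h than at 60 min and had its highest value, 26.8, at 12 h.

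The leading PU.1 site of *Egr1*, 4.8 kb upstream, was the only one of the locus called for C/EBPα in all 8 libraries. PU.1 read 89.3, 92.8, 142, 98.7 and 107 from 0 to 48 hpi, a 1.20-fold (0.872 to 1.66) difference between the ends. C/EBPα read 13.5, 16.1, 23.1, 23.5, 30.5, 43.5, 23.7 and 23.9, and 48 against 0 h gave 1.76-fold (0.813 to 3.99). C/EBPβ read 14.0, 25.7, 13.8, 48.0 and 53.2, a 3.80-fold (1.54 to 11.2) rise. At the *Egr1* start no factor passed 8.40 normalised reads. So PU.1 and C/EBPα were called at the site 4.8 kb upstream before induction. C/EBPβ was not called at 0 hpi, with 6 reads where a call needed 8, though its normalised value was near that of C/EBPα. C/EBPβ was the factor counted as higher at 48 hpi, but the intervals of its ratio and that of C/EBPα overlap.

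*Egr2* (chr10:66998223-67004936, + strand) had 3 C/EBPα, 2 C/EBPβ and 11 PU.1 sites. At 16.5 kb upstream, in intergenic DNA, all 3 factors were counted as higher at 48 than at 0 hpi. PU.1 read 1.42, 0, 26.1, 17.6 and 34.4, or 24.3-fold (4.08 to 984, 1 read at 0 hpi). C/EBPβ read 2.33, 5.13, 3.44, 3.20 and 25.6, or 11.0-fold (1.65 to 466, 1 read). C/EBPβ was called there by the 48 hpi library alone and PU.1 first at 12 hpi, so both folds were in part selected to be high. C/EBPα had no read at 0 h and 11.3 normalised reads (9 reads) at 48 h, at least 3.34-fold higher against 3 reads, but was not called in any library. The leading C/EBPα site, 45.4 kb upstream, read 1.13, 6.42, 9.23, 14.8, 6.29, 8.37, 1.32 and 10.1, with C/EBPβ at 19.7 and PU.1 first called at 48 hpi. At the *Egr2* start C/EBPα was at most 5.02 and PU.1 1.91, and no C/EBPβ read was counted. That window covers only the first annotated start. PU.1 was called in introns of *Egr2*, 0.778, 1.303 and 2.328 kb downstream of it. The site at 1.303 kb was called for PU.1 in 4 libraries, first at 0 hpi, and the others in 1 each (24 and 12 hpi). The site at 2.328 kb lay 66 bp from another annotated *Egr2* start.

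*Id2* (chr12:25778666-25780957, − strand) had 4 sites, of which 2 lay within 2.0 kb upstream of its start. PU.1 at the nearer, 419 bp upstream, read 11.3, 15.2, 35.5, 15.9 and 20.1, and was 1.77-fold (0.753 to 4.62) at 48 against 0 hpi. C/EBPα calls joined to it lay 150 to 175 bp further upstream, at 16.9 normalised reads at 30 min and 8.70 at 60 min. The other, 2.0 kb upstream, had C/EBPα at 9.88 at 3 h and no read at 48 h, at least 2.62-fold lower. C/EBPβ was called once in the locus, 47.5 kb upstream at 48 hpi, with 27.6 normalised reads and no read at 0 hpi (at least 3.94-fold). No other library called that site, so its fold was selected to be high. At the annotated start of *Id2* no factor passed 4.56 normalised reads. The *Id2* locus thus held few sites, each of fewer than 40 reads in any library.

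*Nfe2* (chr15:103078643-103088834, − strand) had 6 C/EBPα, 3 C/EBPβ and 12 PU.1 sites. All 3 factors had their leading site at its start, the place with most C/EBPα reads in the 8 loci. C/EBPα there read 51.9, 97.9, 199, 142, 209, 303, 231 and 209 from 0 to 48 h, and was 4.02-fold (2.89 to 5.70) higher at 48 than at 0 h. The 3 h value was 1.0-fold (0.819 to 1.23) that at 48 h. C/EBPβ rose 3.07-fold (2.03 to 4.76) to 215. PU.1 at the centre was 0.842-fold (0.368 to 1.97) at 48 against 0 hpi, and its own calls lay 75 to 175 bp upstream, with 59.7 at 12 hpi. About 0.4 kb into the gene a second C/EBPα site, called by the 60 min library alone, had 35.3 at 60 min and 5.03 at 48 h, 7.02-fold (2.62 to 26.5). C/EBPβ was also higher at 48 hpi 2.2 kb upstream (from 0 reads to 41.4, at least 5.91-fold) and 22.6 kb upstream (4.67 to 31.5, 6.75-fold, 1.59 to 60.5), both without PU.1. The site 2.2 kb upstream was called by the 48 hpi C/EBPβ library alone. Folds at sites called by a single library were selected to be high. Folds over 0 hpi at sites of any locus that were called only at later times were so in part.

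*Maf* (chr8:118206842-118231694, − strand) had no call of any factor in a locus of 124.853 kb with no other coding gene. The highest 200-bp bin held between 3 and 9 reads in the 18 libraries, and the 9 reads were in the 10 min library, where a call needed at least 15. At its start 0 to 2 C/EBPα reads were counted, and no C/EBPβ read in any of the 5 libraries, for which the upper limits of the intervals were 6.31 to 12.7 normalised reads. Reads over the whole locus were 0.478 to 0.841 of the genome's mean density. *Klf4* (chr4:55540013-55545347, − strand) came close to that, with 0.545 to 0.896 of the mean density, 0 or 1 read at its start in each library, and no C/EBP call. Its 2 sites were PU.1 alone. The larger, 43.5 kb downstream, read 11.3, 12.2, 15.9, 0.881 and 10.5, and the other, 53.2 kb downstream, never passed 10.6. Binding at these 2 loci was not detectable at this depth beyond those PU.1 sites.

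The 10 sites with C/EBPα at 48 hpi were split by whether PU.1 was called before induction. PU.1 was called at 0 hpi at 5 of the 10, against 33.3% of all such sites in the genome, and the 5 were 3 *Klf2* sites (23.2 and 1.3 kb upstream and 3.7 kb downstream), the *Egr1* site 4.8 kb upstream and the start of *Nfe2*. PU.1 had not been called at 0 hpi at the *Klf2* sites 15.2 and 46.4 kb upstream or at the 3 *Klf6* sites. With both the C/EBPα and the PU.1 call required within 100 bp of the centre, a rule added after seeing the data, 3 sites remained in place of 5. The share over the genome under that rule was not computed, so the 3 cannot be set against the 33.3%.

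The sites were searched for exact consensus letters. TTGCNNAA was found on either strand in 11 of the 42 C/EBPα sites, against 30.4% of all C/EBPα sites, and in 4 of the 28 sites with C/EBP and no PU.1, against 36.4%. The PU.1 letters GAGGAAGT stood in 9 of 73 PU.1 sites (23.1% of all) and in none of those 28 (1.50%). Over all 101 sites, AP-1 (TGANTCA) was present in 14 (9.65% of all sites), RUNX (TGTGGTT) in 10 (6.82%), EBF1 (TCCCNNGGG) in 5 (5.54%), an E-box (CAGCTG), as bound by the E proteins that ID2 holds, in 13 (13.4%), and the MAF letters TGCTGAC in 5 (3.68%). The EGR letters GCGTGGGCG were in no site (0.125%) and the KLF letters CCACACCC in 1 (2.00%). No difference in these shares was tested, and a missing match says only that these exact letters are not in the 200 bp. The *Klf2* site 15.2 kb upstream, both *Klf2* windows at 3.7 kb and the *Klf6* site at 14.2 kb held the C/EBP letters, and the *Egr1* site at 32.0 kb and the *Klf6* site at 9.0 kb did not.

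Relatives of the 8 genes were counted in the same way. Of 32 listed, 30 had a bound site, 28 a C/EBPα site and 12 a bound site with C/EBPα higher at 48 than at 0 hpi, with 0 to 72 sites a locus (median 14.5). Over all coding loci 12.9% had no site and 26.3% no C/EBPα site. A bound site of any factor with C/EBPα counted as higher at 48 hpi was held by 25.6%, and by 4 of the 8 loci here. At *Egr2*, which is among them, that site was not called for C/EBPα in any library. In the MAF and CNC list each of the 10 had a bound site, unlike *Maf*, 9 had a C/EBPα site and 3 a rise. In the KLF list 11 of 12 had a C/EBPα site and 3 a rise, and *Klf5* had no site of any factor. In the list of EGR proteins with their Nab co-repressors it was 3 of 4 and 2, and in the list of ID and E proteins 5 of 6 and 4, where *Id4* had no site. Longer genes have longer loci, and counts were not corrected for length.

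The leading C/EBPα sites were also compared over the 18 libraries with the leading C/EBPα sites of 16371 to 16379 other genes. The course at *Klf2* was most like that at *Itpr2* (Pearson r = 0.96 across libraries), at *Klf6* like a site in the loci of *Ifitm1*, *Ifitm2*, *Ifitm3*, *Ifitm5*, *Ifitm6* and *Gm17387* (0.98), and at *Egr1* like a site near *Ccnd3* and *Taf8* (0.97). At *Nfe2* it was a site in the loci of *Atf4*, *Cacna1i*, *Mgat3*, *Rps19bp1* and *Smcr7l* (0.97). The values for *Egr2* (*Usp1*, 0.83) and *Id2* (*Cct4*, *Fam161a* and *Zrsr1*, 0.81) were lower and rest on few reads. All points share the same 18 libraries and their depths, and a likeness picked as the highest of so many is a description only.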

How the data were processed

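ChIP-seq reads were deposited per library as aligned positions, 1 line per read. The authors mapped reads to mm9 by ELAND or Bowtie without mismatches, kept unique reads and used HOMER (tools and build per the labels and the study's methods; versions not given in the sources used here). The deposited files hold no counts per region, so reads were counted here. The 5′ end of each read was moved 75 bp inward and identical position and strand kept once (2.51% removed in C/EBPα 3 h, at most 0.188% elsewhere). Windows of 200 bp in steps of 25 bp were called at a genome-wide Poisson p of at most 1e-07, at least 4-fold over the surrounding 10 kb and a local p of at most 0.0001, with calls at least 400 bp apart. A call needed 7 to 15 reads. Ratios against 0 reads use a floor of 3 reads. Gene spans are GENCODE vM1; Python 3.11.15 and numpy 2.4.6 were used. The strand offset was 241 to 251 bp for PU.1, so a 75-bp shift is short for it. Among C/EBPα libraries the offset differed, at 101 bp for 0 h, 181 to 190 bp for 10 to 60 min, 115 bp for 3 h and 138 bp for 48 h. The single shift therefore fits them unequally. Calling was run on simulated reads of a single depth, on an even background and without a strand offset. That run therefore does not cover the differing depths and offsets of these libraries.

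Samples were grouped by factor and time from the labels. The members, lists and tests were chosen with earlier results of these data known. Sites described in full were the gene start and the site with most reads of each factor; other sites named were chosen after their values were seen, mainly as those counted as changed. The labels give 100 nM β-estradiol, and the study's methods another unit. PU.1 at 10, 30 and 60 min, histone marks and expression were not analysed here.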

Additional observations from a re-analysis of the deposited data

How the results depend on the processing

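The 16 counts of sites were recomputed under up to 11 other settings, and 119 of 128 recomputed counts stayed within 1.5 times of the reported one. The exceptions follow. The 1 site with less C/EBPα at 48 than at 0 hpi (*Egr1*, 32.0 kb downstream) became 0 with libraries thinned to the smallest of their factor, 0 with scaling to reads away from sites and 0 in a 500-bp window. The 13 sites with more C/EBPβ at 48 hpi became 5 after thinning, which leaves fewer reads. The 3 sites with less C/EBPα at 60 min than at 48 hpi became 1 after thinning and 5 in the 500-bp window, both added after seeing the data. The 1 site with less PU.1 became 2 in the 500-bp window. The 101 sites became 54 with a 20-kb margin, which covers less DNA. C/EBPα sites at 48 hpi with PU.1 at 0 hpi numbered 3 instead of 5 when both calls had to lie within 100 bp of the centre (added after seeing the data). Among the counts within the limit, C/EBPα sites numbered 29 instead of 42 without the 50-base libraries, also added later. Of the 18 log2 ratios of 48 over 0 hpi at leading sites, all stayed within their counting interval under the 5 other settings, except C/EBPβ at *Klf6* 14.2 kb downstream, a lower bound of 3.17 that became 2.66 after thinning. The same reads were recounted, and many intervals are wide because 0 hpi held few reads, so this is a weak check. No paired analysis was possible because each factor had 1 library per time. Depth limits C/EBPβ most: in its 12 hpi library of 2903580 reads, the floor of 3 reads equals 10.3 normalised reads.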
